A study of Mus musculus with 20 samples.

Results

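The 10 genes of matricellular proteins described here were taken from a list by gene symbol: Postn, Sparc, Spp1, Tnc, Thbs1, Thbs2, Thbs4, Ctgf, Cyr61 and Wisp2. Of these 10 genes, 9 had at least 1 probe set that the platform annotation assigned to them alone, and 8 of the 9275 genes tested belonged to the list. Ctgf, Cyr61 and Wisp2 stand in current annotation as Ccn2, Ccn1 and Ccn5. Tnc was measured but was too dim for the gene test, and Spp1 was not analysed here. The hearts came from 10 old male C57BL/6J mice, aged 25 to 28 months, and from 10 young male C57BL/6J mice, aged 4 to 6 months. C57BL/6J is an inbred strain, and the labels name no transgene or treatment. RNA of the cardiac ventricle of each mouse was measured on its own Affymetrix MOE430 2.0 array. The series compared the age groups with mitochondrial gene expression in view. Its design text calls both groups young, so the groups were taken from the sample titles.

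Matricellular proteins are secreted into the extracellular matrix but do little to bear load. They bind collagen, growth factors and receptors such as integrins, and so change how cells attach, migrate and respond to signals. In the healthy adult heart most are sparse, and they are known to return after infarction, pressure overload and inflammation, made by fibroblasts, smooth muscle cells, endothelium, cardiomyocytes and, for some, platelets and macrophages.

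Old and young hearts differed in 6 of the 8 tested matricellular genes. Thbs1, Ctgf, Postn, Thbs4 and Wisp2 were higher in old hearts, Cyr61 was lower, and Sparc and Thbs2 did not pass the test (limma, Benjamini-Hochberg adjusted p under 0.05 over all genes tested). Among all 9275 genes, 11.2% were called higher in old and 7.49% lower, 18.7% in either direction. The median log2 difference, old minus young, was 0.93 over the 8 matricellular genes and 0.01 over all genes tested. A probe set passed the filter on low values when its log2 signal exceeded 4 in at least 10 of the 20 arrays. The 8 tested genes are thus not all members of the list. Thbs1 (9 old and 3 young arrays above 4) passed mainly through the old arrays. Wisp2 (10 old and 4 young) would have passed through the old arrays alone. The filter thus fixed the count of higher genes in part.

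**Figure D1:**
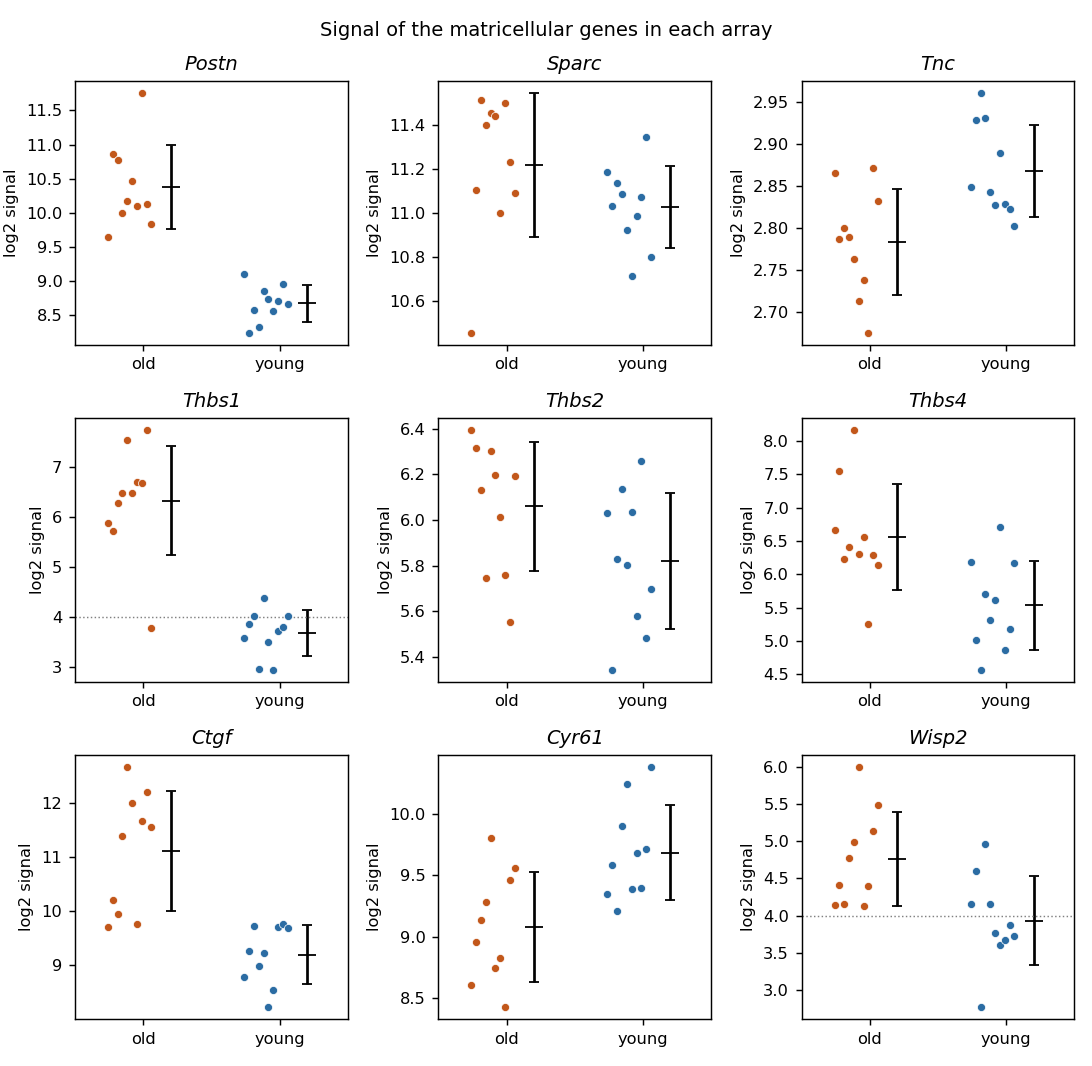
Log2 signal of the 9 measured matricellular genes in each of the 10 old arrays (left) and 10 young arrays (right) of each panel. Bars give mean ± SD, each axis has its own range, and the dotted line marks the filter level of 4. The old Postn values, 9.64 to 11.75, all lie above the young ones, 8.24 to 9.10, and the Tnc panel spans only 2.68 to 2.96.

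All values are log2 signals as deposited, and their size cannot be set against that of another probe set. A pair of array features bears on the results. Although the labels give ventricle, atrial muscle transcripts were abundant in most old arrays. Myl7, the atrial regulatory myosin light chain, exceeded 10 in 7 old arrays and lay between 2.38 and 2.44 in all young ones. An atrial index averages the linear signals of Myl7 and Sln, the atrial sarcolipin gene, each divided by its highest array. Old replicates 4, 5, 6, 8, 9 and 10 had an index of 0.403 to 1, old replicate 3 of 0.1255, and old replicates 1, 2 and 7 no more than 0.01062. Of 10 measured atrial markers, 6 were tested and 5 were called higher, against 11.2% of all genes tested. The mean log2 level of the 10 was 5.67 to 11.84 in old arrays and 5.45 to 5.91 in young ones. In addition, the deviations of the arrays from their group means fell into 5 clusters, called array sets here, that each held 2 old arrays and 2 young ones. No label names a batch. Ventricular cardiomyocyte markers had a mean log2 level of 13.52 to 13.92 in old arrays and 13.46 to 13.66 in young ones. Of the 11, 10 were not called. The other was Myh7, the beta myosin heavy chain gene, which rose by 2.60 (adjusted p = 3.92e-06) and is part of that mean. Irx4 was dimmer, at 6.10 in old and 6.68 in young hearts (limma adjusted p = 0.0845). Myh6 stands in the atrial list too, so the mean level is not specific to ventricle. In RNA of whole tissue, a different number of cells of one type and a different amount of RNA per cell cannot be told apart.

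Periostin, encoded by Postn, is a secreted protein of cardiac fibroblasts and valve cells that binds integrins and helps collagen fibrils to mature. Its signal in the old arrays had a lowest value of 9.64, a median of 10.15 and a highest value of 11.75, against 8.24, 8.68 and 9.10 in the young arrays. No old array reached down to the young range, a separation upward found in 1.36% of all genes tested, and downward in 0.420%. Postn averaged 10.38 ± 0.62 in old hearts and 8.67 ± 0.27 in young hearts (SD, n = 10 each), a log2 difference of 1.70 ± 0.20 (SE; adjusted p = 4.55e-06) or 3.26-fold. The difference lay between 1.37 and 2.10 within the 5 array sets. With the atrial index as a covariate it came to 1.75 (limma adjusted p = 0.000523) and 1.53 once the 7 old arrays whose Myl7 exceeded 10 were left out (3 old against 10 young arrays, limma adjusted p = 0.000875). The highest Postn value belonged to old replicate 8.

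The 2 transcription starts of Postn in RefSeq have different 300-base windows, and the one that carries a TATA box is shown first among 3 promoter windows. They are printed because these genes moved in opposite directions, Postn and Thbs4 higher and Cyr61 lower in old. Each window runs from 250 bases before to 50 after the gene start, from RefSeq on GRCm38.p6, 5′ to 3′ on the gene's strand, in lower case with capitals where TATAAA or the TEAD core CATTCC was found on either strand.
Postn (chr3:54360857-54361156, plus strand): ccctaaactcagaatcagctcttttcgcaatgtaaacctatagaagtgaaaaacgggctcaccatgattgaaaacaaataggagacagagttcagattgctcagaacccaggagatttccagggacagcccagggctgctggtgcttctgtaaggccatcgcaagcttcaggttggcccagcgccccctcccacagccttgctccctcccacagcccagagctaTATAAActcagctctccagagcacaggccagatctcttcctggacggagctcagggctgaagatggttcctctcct
Cyr61 (chr3:145649936-145650235, minus strand): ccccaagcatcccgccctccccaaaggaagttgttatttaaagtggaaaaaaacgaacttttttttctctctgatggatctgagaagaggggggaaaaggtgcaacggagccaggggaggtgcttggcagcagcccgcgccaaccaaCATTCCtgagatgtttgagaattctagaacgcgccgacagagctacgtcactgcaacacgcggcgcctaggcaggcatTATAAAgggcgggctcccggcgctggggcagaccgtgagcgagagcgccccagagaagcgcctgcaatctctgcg
Thbs4 (chr13:92794769-92795068, minus strand): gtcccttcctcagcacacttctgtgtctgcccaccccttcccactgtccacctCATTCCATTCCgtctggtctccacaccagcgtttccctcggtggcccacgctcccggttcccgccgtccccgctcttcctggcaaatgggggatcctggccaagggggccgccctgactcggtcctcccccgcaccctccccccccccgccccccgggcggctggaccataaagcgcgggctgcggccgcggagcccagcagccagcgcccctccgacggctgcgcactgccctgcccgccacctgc
TEAD factors carry YAP and TAZ, the transcription partners of the Hippo pathway, to DNA. CATTCC began 103 bases before the start of Cyr61, and 2 overlapping matches began 197 and 192 bases before the start of Thbs4. TATAAA began 26 bases before the start of Postn and 25 before that of Cyr61. It also occurred, farther from the start, in both windows of Tnc and in that of Thbs2, but not in those of Sparc and Thbs4. CATTCC occurs in 14.7% and TATAAA in 13.6% of 32841 promoter windows of the same length. The motif TGANTCA of AP-1 (7.81% of windows) and the CArG box of SRF (1.63%) had no match in any window of Postn, Cyr61, Tnc, Sparc, Thbs2 or Thbs4. CAGACA, a SMAD core held by 21% of windows, was found in those of Sparc, Tnc, Thbs2 and Thbs4. A match is a stretch of letters and was not tested as a binding site. Windows were matched for 6 of the 10 genes, and those of Ctgf, Thbs1, Wisp2 and Spp1 were not used here.

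SPARC, also called osteonectin, is a collagen-binding glycoprotein that takes part in procollagen processing. Sparc was bright in both groups, with a lowest value of 10.46, a median of 11.32 and a highest value of 11.51 in old arrays, against 10.72, 11.05 and 11.35 in young ones. The groups overlapped widely. The log2 difference was 0.19 ± 0.12 (SE, adjusted p = 0.283), and its second bright probe set gave 0.14 (adjusted p = 0.592 over probe sets). Old replicate 1 held the low value of 10.46, and without that array Sparc passed the test (0.28, limma adjusted p = 0.047). Without the 7 atrial-high old arrays the estimate was −0.17 (limma adjusted p = 0.603), below 0 where the other fits were above it.

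Tenascin-C is nearly absent from healthy adult myocardium and appears in injured tissue. Its 2 probe sets lay near the floor of the scale, where values have no order. The brighter one was between 2.68 and 2.87 in old arrays and between 2.80 and 2.96 in young ones, and the other between 2.38 and 4.64 in old arrays and between 2.43 and 2.48 in young ones. The value of 4.64 was that of old replicate 8, the array with the highest Postn signal, and it was the only Tnc value above 4. In two-sided permutation tests with 100000 resamples the differences were −0.08 (p = 0.00508, adjusted p = 0.0102 over the 2 probe sets) and 0.22 (p = 0.487). The first shift lies at the floor of the scale and is given as a value only.

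Thrombospondins are large calcium-binding glycoproteins. The trimeric forms thrombospondin-1 and thrombospondin-2 bind CD36 and CD47 and restrain blood vessel growth, and thrombospondin-1 also activates latent TGF-beta and is stored in platelet granules. Thbs1 had the largest difference of the 8 genes. Its old arrays had a lowest value of 3.78, a median of 6.47 and a highest value of 7.73, against 2.95, 3.76 and 4.37 in the young arrays. Of the 10 old arrays, 9 lay above all young ones. Old replicate 10, at 3.78, lay within the young range. Thbs1 averaged 6.32 ± 1.10 in old hearts and 3.68 ± 0.45 in young hearts (SD, n = 10 each), a log2 difference of 2.64 ± 0.34 (SE; adjusted p = 1.31e-05) or 6.25-fold. Only 3 young arrays exceeded 4, against 9 old ones. Thbs1 thus passed the filter mainly through the old arrays, which fixed its call in part. The young level is near the floor and the fold is rough. The second probe set, which did not pass the filter, was 3.84 to 6.73 in old arrays and 3.69 to 3.86 in young ones, again with old replicate 10 as the only old array inside the young range.

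The Thbs1 difference was 1.99 to 3.06 within the array sets, 2.80 with the atrial index (limma adjusted p = 0.000924) and 2.41 without the 7 atrial-high old arrays (limma adjusted p = 0.000164). Of 9 measured platelet genes, 4 were tested and called higher in old, against 11.2% of all genes tested. The filter fixed this count in part, since Clec1b (10 old and 0 young arrays above 4) and Gp1bb (10 old and 1 young) passed through the old arrays, while Pf4 and Ppbp exceeded 4 in all 20. The mean log2 level of the 9 was 4.20 to 8.12 in old arrays and 3.37 to 4.04 in young ones. Gp6 was at or under 4 in every array. Pf4, a platelet chemokine, averaged 9.86 ± 0.85 in old hearts and 8.33 ± 0.34 in young hearts (SD, n = 10 each). Old replicate 10 had the lowest platelet level of the old arrays and the lowest Thbs1, and old replicate 9 had the highest of both. Over the deviations of the 20 arrays from their group means the correlation of Thbs1 with the platelet level was r = 0.587 (permutation p = 0.0893, adjusted p = 0.417) and rho = 0.141 (permutation p = 0.57, adjusted p = 0.912). Without the 2 arrays farthest from the median platelet level it was −0.06, so it rests on those arrays. With the mean of the 2 arrays of each age in each array set removed it was 0.927. Old replicates 9 and 10 share an array set, with platelet levels of 8.12 and 4.20, so that value rests mainly on this pair. The part of platelets in the Thbs1 difference was not tested.

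Thrombospondin-2 did not pass the test. Thbs2 in old arrays had a lowest value of 5.55, a median of 6.16 and a highest value of 6.39, against 5.34, 5.82 and 6.26 in young arrays. The log2 difference was 0.24 ± 0.13 (SE, adjusted p = 0.203). Its 3 probe sets disagreed. The dimmest was called higher in a fit over probe sets (0.89 ± 0.28, SE; adjusted p = 0.0367), with old arrays at 3.50 to 6.09 and young arrays at 3.37 to 5.02, whereas the other gave 0.07 (adjusted p = 0.817). The mean of the 3 probe sets passed the test narrowly (0.40, adjusted p = 0.0481). Of 12 probe sets of the 8 genes that passed the filter, 7 were called, 6 higher and 1 lower, against 14.8% of all 15304 probe sets called in that fit, 8.89% higher. Without young replicate 13 only 4 of them were called.

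Thrombospondin-4 is a pentameric form of heart and tendon that rises in pressure-loaded hearts and takes part in the endoplasmic reticulum stress response of cardiomyocytes. Thbs4 in old arrays had a lowest value of 5.25, a median of 6.36 and a highest value of 8.16, against 4.57, 5.46 and 6.71 in young arrays. The groups overlapped, with 2 old arrays above all young ones. Thbs4 averaged 6.56 ± 0.80 in old hearts and 5.53 ± 0.67 in young hearts (SD, n = 10 each), a log2 difference of 1.03 ± 0.30 (SE; adjusted p = 0.0203) or 2.04-fold. The difference was 0.004 to 1.78 within the array sets. It reached 1.38 with the index fitted (limma adjusted p = 0.0484) and 1.40 without the 7 atrial-high old arrays, where it lost its call (limma adjusted p = 0.0628).

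CCN proteins are cysteine-rich secreted regulators. CTGF, the product of Ctgf, and CYR61 are classic targets of YAP, TEAD and SRF and bind integrins, and CTGF works with TGF-beta in fibrosis. The product of Wisp2 lacks the C-terminal domain of the other CCN proteins and is known to counter CTGF in the mouse heart. In the fit without covariates Ctgf and Wisp2 were called higher in old hearts and Cyr61 lower. With the atrial index as a covariate none of these calls remained. Wisp2 would have passed the filter through the old arrays alone, so its call is no support.

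Ctgf in old arrays had a lowest value of 9.70, a median of 11.48 and a highest value of 12.66, against 8.23, 9.25 and 9.77 in young arrays. Of the 10 old arrays, 8 lay above all young ones. Ctgf averaged 11.11 ± 1.10 in old hearts and 9.20 ± 0.54 in young hearts (SD, n = 10 each), a log2 difference of 1.92 ± 0.35 (SE; adjusted p = 0.00068) or 3.78-fold. The 6 old arrays with an atrial index of 0.403 to 1 ran from 11.39 to 12.66, while old replicates 1, 2, 3 and 7 were at 9.70, 10.21, 9.96 and 9.76. The difference fell to 0.92 with the atrial index (limma adjusted p = 0.139) and to 0.70 without the 7 atrial-high old arrays (limma adjusted p = 0.255), and it lost its call in both. Within the array sets it was 0.72 to 3.60, and lowest in the set of old replicates 1 and 2. Atrial content and age cannot be told apart in most old arrays, because the index was high in old arrays only.

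**Figure D2:**
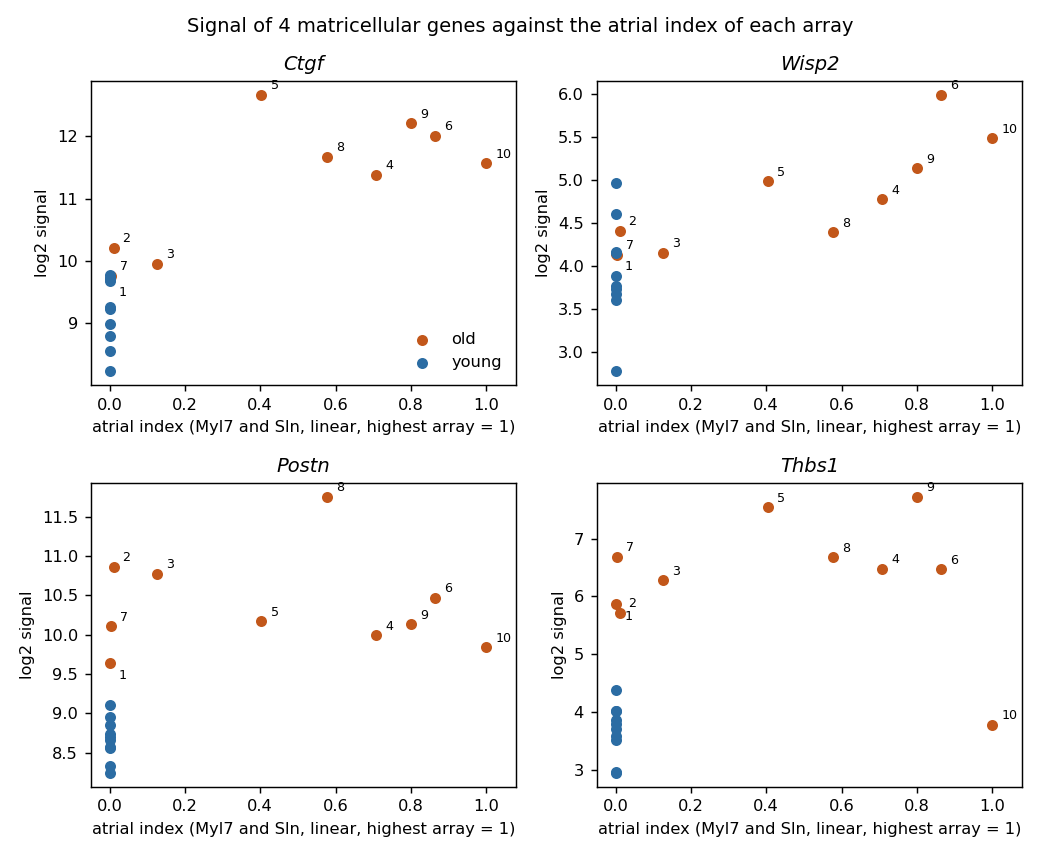
Log2 signal of Ctgf, Wisp2, Postn and Thbs1 in each array (vertical axis) against its atrial index (horizontal axis, Myl7 and Sln on the linear scale, highest array 1), with old arrays numbered by replicate. The young arrays stand at an index near 0. The Ctgf values of the 6 old arrays from 0.403 upward lie at 11.39 to 12.66, above every other array, while Postn and Thbs1 show no such step.

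Wisp2 was dim. Its old arrays had a lowest value of 4.13, a median of 4.60 and a highest value of 5.99, against 2.77, 3.82 and 4.97 in young arrays, with 10 old and 4 young arrays above 4. Only 4 old arrays lay above all young ones. Wisp2 averaged 4.76 ± 0.64 in old hearts and 3.93 ± 0.60 in young hearts (SD, n = 10 each), a log2 difference of 0.83 ± 0.25 (SE, adjusted p = 0.0258) or 1.78-fold. The old arrays alone met the filter, so this call is no support. The young level is near the floor and the fold is rough. The call was lost with the atrial index (0.21, limma adjusted p = 0.726), without the 7 atrial-high old arrays (0.30, limma adjusted p = 0.686) and narrowly after quantile normalization (0.74, adjusted p = 0.0504). Within the array sets the difference was 0.33 to 1.53.

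Cyr61 ran the other way. Its old arrays had a lowest value of 8.43, a median of 9.04 and a highest value of 9.80, against 9.21, 9.63 and 10.38 in young arrays, and 6 old arrays lay below all young ones. Cyr61 averaged 9.08 ± 0.45 in old hearts and 9.68 ± 0.39 in young hearts (SD, n = 10 each), a log2 difference of −0.60 ± 0.18 (SE; adjusted p = 0.0198), which is 0.658 of the young level. Its second bright probe set gave −0.56 (adjusted p = 0.0688 over probe sets). The difference was −0.19 to −1.08 within the array sets. With the atrial index it came to −0.79 (limma adjusted p = 0.0582), which lost the call, and to −0.89 without the 7 atrial-high old arrays (limma adjusted p = 0.0406). Cyr61 is an immediate early gene. Of 18 tested immediate early genes 3 were lower in old (16.7%, against 7.49% of all genes tested). Of the same 18 genes 1 was higher (5.56%, against 11.2%). Nr4a1, a nuclear receptor, changed by −1.98, its relative Nr4a2 by −1.31 and the transcription factor gene Atf3 by −0.98, while Ier3 rose by 0.79. Egr1 was at 0.59 (adjusted p = 0.432) and Fos at −0.38 (adjusted p = 0.761). The mean log2 level of the 20 measured genes was 5.92 to 7.28 in old arrays and 6.34 to 7.66 in young ones, and its part in the Cyr61 difference was not tested.

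**Figure D3:**
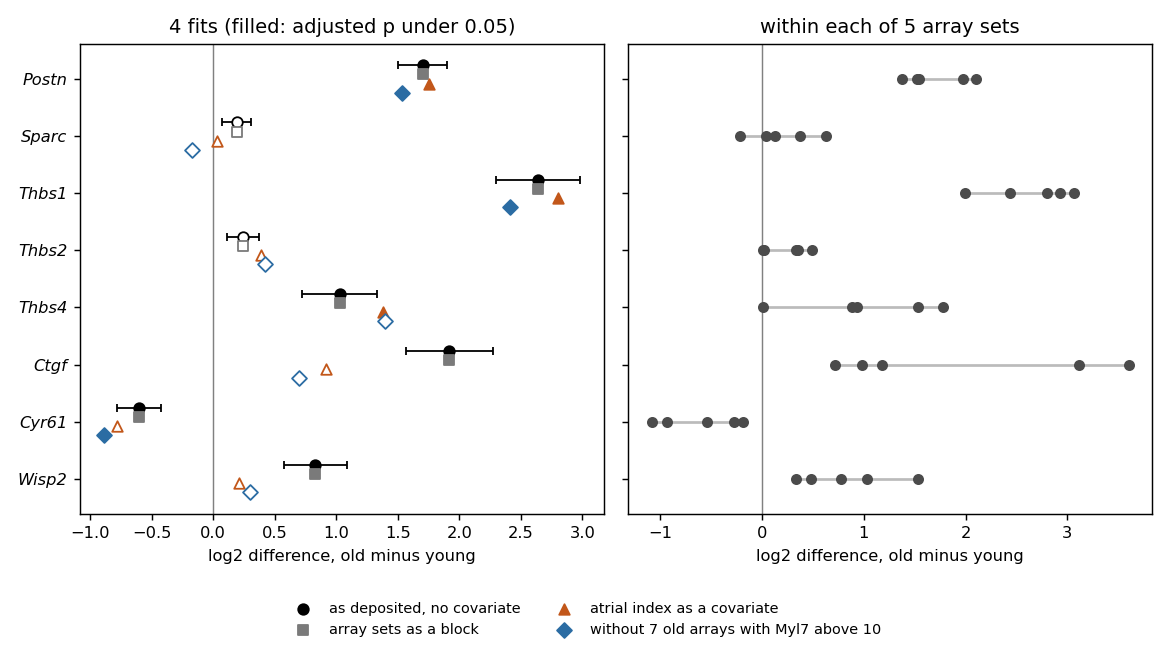
Log2 difference, old minus young, of the 8 tested matricellular genes. The left panel gives 4 fits, with bars of ± 1 SE for the fit without covariate and filled symbols where the limma adjusted p was under 0.05, and the right panel gives the difference within each of 5 sets of 4 arrays. Ctgf stands at 1.92 without and 0.92 with the atrial index, while Postn stands at 1.70 and 1.75, and Cyr61 is below 0 in all 5 sets.

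In all, 3 of the 8 genes were called with the atrial index as a covariate, Postn, Thbs1 and Thbs4, all higher, where 3.74% of all genes tested were called, 2.81% higher. Without the 7 atrial-high old arrays 3 were called, Postn and Thbs1 higher and Cyr61 lower, against 2.93% of all genes, 2.25% higher and 0.679% lower. With the array sets as a block 6 were called, 5 higher and 1 lower, against 36.1% of all genes, 19.4% higher and 16.7% lower. The sets were found from the same values, and each held 2 old and 2 young arrays. The block thus leaves the differences as they were and takes out variation between arrays, so it is no check of the calls. With index and sets together Postn, Thbs1 and Thbs4 were called, against 6.24% of all genes, 4.36% higher and 1.89% lower. The 3 old arrays left without the atrial-high ones come from 2 of the sets. Thbs1 and Wisp2 entered the 8 tested genes mainly through the old arrays, so the filter fixed these counts of higher genes in part.

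Of 22 further genes of matricellular and related matrix proteins on the array, 12 were tested, with a median log2 difference of 1.03. Of the 12, 9 were called higher and 2 lower, against 11.2% and 7.49% of all genes tested. The filter lets dim genes through only where many arrays are high, so this count is no measure of all 22. The other 10 were not tested, and 6 of them were at or under 4 in every array. Comp, which encodes thrombospondin-5, exceeded 4 in all 10 old arrays and in 0 young ones, and so entered the test through the old arrays alone. Comp averaged 6.35 ± 1.12 in old hearts and 3.42 ± 0.25 in young hearts (SD, n = 10 each), given as a value only. Fstl1, a SPARC-related glycoprotein, rose by 1.23, Mgp, the matrix Gla protein that limits calcification, by 1.49, and Tgfbi, a relative of periostin, by 1.27. Nov, which encodes another CCN protein, averaged 7.53 ± 2.23 in old hearts and 5.39 ± 0.32 in young hearts (adjusted p = 0.0234). Smoc2, a SPARC relative, changed by −0.54 and Agrn, an organiser of basement membrane, by −0.28. With the atrial index 4 of these 12 genes were called, against 3.74% of all genes tested, and 4 without the 7 old arrays, against 2.93%.

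Some receptors of matricellular proteins were also higher. Of 17 tested receptors, 5 were higher (29.4%, against 11.2% of all genes tested) and 12 not called, with a median of 0.37. They were Cd44, a hyaluronan and osteopontin receptor (1.74), the leukocyte integrin subunit gene Itgb2 (1.70), the scavenger receptor gene Lrp1 (0.93), Itgav, the subunit that pairs to bind periostin and vitronectin (0.51), and the thrombospondin receptor gene Cd47 (0.49, adjusted p = 0.0202). Cd44 and Itgb2 were higher in every old array than in any young one, a separation found in 1.36% of all genes tested. Of 24 tested regulators 6 were higher (25%) and 18 not called. The 6 were the ligand genes of the TGF-beta family Tgfb2 (0.83) and Tgfb3 (0.82), the receptor genes Tgfbr2 (0.79) and Tgfbr1 (0.45), the inhibitor gene Smad7 (0.61) and Ltbp3 (0.57), which encodes a binding protein of latent TGF-beta. Among the 18, Tgfb1 was at 0.32 (adjusted p = 0.115), and the signal transducer genes Smad2, Smad3 and Smad4 were at 0.07, 0.33 and 0.01. Of 18 tested genes known as further targets of YAP or SRF, 3 were higher and 15 not called, or 16.7% higher against 11.2% of all genes tested, a share near the background. The 3 were Tgfb2, the receptor kinase gene Axl (0.84) and the smooth muscle actin gene Acta2 (1.16, adjusted p = 0.0352), while Cnn1 was at 1.35 (adjusted p = 0.0653). With the atrial index 2 receptors, 2 regulators and 1 of these targets were called, against 3.74% of all genes tested.

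**Figure D4:**
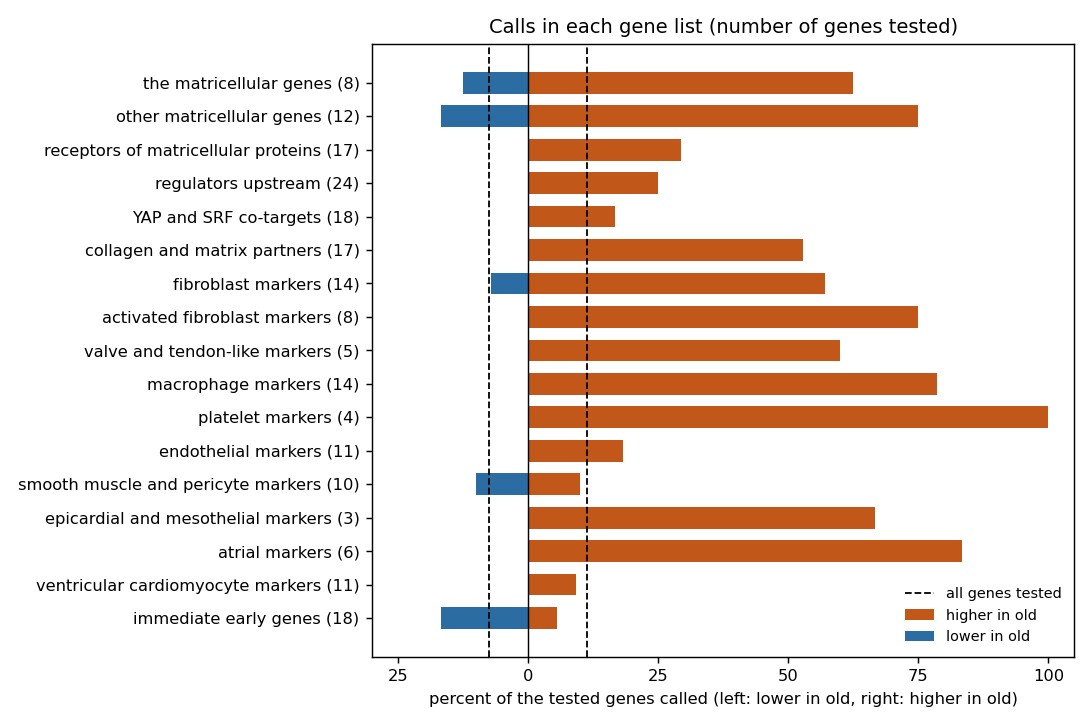
Share of the tested genes of each list called higher in old (right of 0) and lower in old (left of 0), in percent, with the number of genes tested in brackets. The dashed lines give the shares over all genes tested, 11.2% higher and 7.49% lower, and the 8 matricellular genes stand at 62.5% higher and 12.5% lower. Thbs1 and Wisp2, both within the 62.5%, passed the filter mainly through the old arrays.

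Over all genes tested 11.2% were called higher and 7.49% lower, the shares to set beside the counts below. Of 17 tested matrix genes that matricellular proteins bind or help to assemble, 9 were higher and 8 not called, with a median log2 difference of 0.55. The 4 with the smallest p were the fibril-associated collagen gene Col14a1 (1.87), the proteoglycan gene Bgn (1.26), Fn1, which encodes fibronectin (1.51), and Col8a1 (0.75). The genes of the main fibrillar collagens were not called, with Col1a1 at 0.40 (adjusted p = 0.332), Col1a2 at 0.55 (adjusted p = 0.0526) and Col3a1 at 0.16 (adjusted p = 0.584). Neither were the basement membrane genes Col4a1 (−0.15) and Col4a2 (−0.01). With the atrial index 4 were called, against 3.74% of all genes tested, and 3 without the 7 old arrays, against 2.93%. Of 14 tested fibroblast markers, 8 were higher, 1 was lower (Smoc2) and 5 were not called, among them the 3 fibrillar collagen genes just named, with 1 called by limma with the atrial index and 0 without the 7 old arrays (3 at an unadjusted p under 0.05). The mean log2 level of the 15 on the array was 7.998 to 9.35 in old arrays and 7.98 to 8.30 in young ones. Tcf21, a fibroblast transcription factor gene, rose by 0.88 and Pdgfra was at 0.36 (adjusted p = 0.0608). Of 8 tested markers of activated fibroblasts 6 were higher and 2 not called. Cilp (2.06) and Meox1 (1.36) were among the 6, and the 2 were Fap, at −0.53 (adjusted p = 0.0824) with 5 old arrays below all young ones, and Aspn, at 0.08. After quantile normalization, and with the array sets as a block, 1 gene of the list was called lower. Comp entered the test through the old arrays alone. The list had a mean level of the 12 of 5.58 to 6.49 in old arrays and 5.02 to 5.49 in young ones. Cthrc1 and Ddah1 were at or under 4 in every array.

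The counts of the next lists stand against the same 11.2% higher and 7.49% lower over all genes tested. Of 14 valve and tendon markers on the array, 5 were tested and 3 were called higher, Prg4, Comp and Fmod. Comp and Fmod passed the filter through the old arrays (10 old arrays above 4 for each, against 0 and 1 young), so their calls are no support. In the same list Scx and Tnmd, which define tendon cells, were under 4 in every array, and the level of the 14 was 3.43 to 4.95 in old arrays and 3.21 to 3.39 in young ones. That level includes Dkk3, also an atrial marker here, which averaged 8.32 ± 2.70 in old hearts and 2.88 ± 0.21 in young hearts (SD). Of 14 tested macrophage markers 11 were higher, of which Ccr2 passed the filter through the old arrays (10 old and 0 young above 4), with a level of 6.53 to 7.55 for the 18 in old arrays and 5.62 to 6.34 in young ones, and Trem2 was under 4 throughout. Of 10 epicardial markers on the array 3 were tested and 2 called higher, Tbx18 and Gpm6a, of which Gpm6a passed the filter through the old arrays, with a level of 3.39 to 5.28 for the 10 in old arrays and 3.06 to 3.31 in young ones. Smooth muscle and pericyte markers had 1 of 10 higher and 1 lower, shares of 10% each that lie near those of all genes tested. Their level was 7.99 to 9.83 in old arrays and 7.88 to 8.82 in young ones. Endothelial markers had 2 of 11 higher (18.2%, against 11.2% of all genes tested) and 9 not called, the 2 being Vwf (2.27) and Emcn (0.38). The endothelial level was 8.57 to 9.44 in old arrays and 8.45 to 8.94 in young ones. The part of these cell types in the differences of the matricellular genes was not tested. Lists share genes, so their counts are not independent. Comp and Acta2 stand in 3 of them. Many others stand in more than 1, among them Tgfb2, Fn1, Dkk3, Myh6, Smoc2, Col1a1, Col1a2, Col3a1 and Col8a1.

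Within the age groups the matricellular genes varied largely apart from one another. Over 28 pairs the correlation of deviations from the group means across the 20 arrays ran from −0.34 to 0.544 with a median of 0.06, as a description over arrays that share the 5 sets. The genes most like each one differed accordingly. Postn deviated with Mylk (r = 0.913), Pde5a (0.873) and Cald1 (0.871), genes of smooth muscle contraction and its signalling. Sparc deviated with Pmp22 (0.883) and Bgn (0.838), Ctgf with Mest (0.839) and Plagl1 (0.832), Thbs1 with Hipk1 (0.847), and Cyr61 with Atf3 (0.734). These are the highest of 9274 genes or among the 3 highest, so their size is not a test.

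Of 56 relations between a matricellular gene and the level of a marker list, 9 had an unadjusted permutation p under 0.05 for r and 0 passed after adjustment. The closest were Postn with smooth muscle and pericyte markers (r = 0.735, permutation p = 0.00127, adjusted p = 0.0689; rho = 0.62, permutation p = 0.00728, adjusted p = 0.276) and Cyr61 with immediate early genes (r = 0.659, permutation p = 0.00246, adjusted p = 0.0689; rho = 0.585, permutation p = 0.00984, adjusted p = 0.276). Without the 2 arrays farthest from the median of the marker level they were 0.597 and 0.508. With the mean of the 2 arrays of each age in each array set removed they were 0.878 and 0.663. These last values rest only on the differences within such pairs of arrays. In the old arrays alone the 2 correlations were 0.871 and 0.568, and in the young arrays alone 0.126 and 0.767.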

How the data were processed

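Values are deposited on a log2 scale and run from 0.976 to 16. Per the submitters' processing notes the authors used GCRMA, a method of background correction, normalization and probe summary. Its version is not given in the sources used here. Dim transcripts lie near a common floor, where differences are compressed. Groups come from the sample titles. Of 45101 probe sets, 34945 have 1 gene in the platform annotation, named through a gene table of GRCm38.p6. Each gene is represented by its brightest probe set that exceeded 4 in at least 10 arrays. Old and young were compared with limma 3.58.1 in R 4.3.3 over all genes, without covariates, with Benjamini-Hochberg adjustment. The fit was also run on simulated data with independent normal noise for each gene. Those data held no array sets and no atrial content, so that run does not bear on either. The precision is limited by the number of arrays. The genes, the 17 lists and the alternatives were chosen with earlier results of these data known. The 5 array sets were found by clustering the deviations from the group means, on the same values that were then tested. Genes named are all listed ones, those with the smallest p of each list (up to 4), fixed defining markers, and the 3 genes most like each. Others named were chosen after their values were seen, as were the marker correlations. These others were Nov, Dkk3, Myh6, Agrn, Tgfbr1, Ltbp3, Tgfb1, Cd47, Smad2, Smad3, Smad4, Col1a1 and Col1a2. They also include Col3a1, Col4a1, Col4a2, Fap, Aspn, Ccr2, Gp6, Trem2, Cthrc1 and Ddah1.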

Additional observations from a re-analysis of the deposited data

Results flagged for a closer look

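Among 36 groups of 10 values (each probe set of a matricellular gene in each age group), 5 held an array whose gap to its nearest neighbour exceeded Dixon's critical share of the group's range, where chance gives about 1 in 20 groups. Thbs1 in old replicate 10 was 3.7776, against 5.7142 in the next old array. Sparc in old replicate 1 was 10.457, against 11.001 in the next. The other 3 were in probe sets below the filter. Tnc in old replicate 8 was 4.6393, against 2.6447 in the next old array. A dim Cyr61 probe set was 4.2875 in old replicate 9, against 2.6692, and a dim Sparc probe set was 3.0202 in young replicate 13, against 2.8085.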

How the results depend on the processing

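No paired analysis was possible because the groups share no replicate numbers. Of all genes, 1732 were called (1037 higher, 695 lower) in the fit as reported, 4345 with no filter, 3344 with the array sets as a block, 347 with the atrial index, 579 with index and sets together and 272 when the 7 atrial-high old arrays were dropped. Of the matricellular genes 6 were called, and 3 with the index, 3 with index and sets together and 3 without the 7 arrays. Of their probe sets 7 were called, and 4 with a filter at 6, 2 with the index, 4 with index and sets together and 2 without the 7 arrays. Of the 172 tested genes of the other lists 72 were called, and 33, 37 and 31 under these last 3 settings. Rises were 59.9% of calls, 43.2% after quantile normalization and 68.6% after centring each array on its median, and the 8 matricellular genes kept their sign under both scalings. When 1 array was left out, 1391 to 1830 genes, 6 to 7 matricellular genes, 62 to 79 list genes and 4 to 7 probe sets were called, and the mean correlation between matricellular genes was −0.00422 to 0.0998, against 0.0671 with all arrays. No call of a matricellular gene was lost in these 20 fits, and Sparc gained one. With index and sets together Ctgf (0.79, limma adjusted p = 0.234), Wisp2 (0.33, limma adjusted p = 0.544) and Cyr61 (−0.65, limma adjusted p = 0.13) were not called. Thbs1 and Wisp2 did not pass the filter at 6. Probe sets near the floor give no usable order.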
